A study of Mus musculus with 8 samples.

Results

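p53 is the transcription factor that mammalian cells stabilise after DNA damage and other stress, and this account follows its gene, Trp53, together with 9 genes that it is known to activate: Mdm2, Cdkn1a, Ccng1, Zmat3, Bax, Bbc3, Pmaip1, Phlda3 and Trp53inp1. These 10 genes were chosen by name, as well-known p53 targets and apoptosis genes from the 55114 genes counted; the rule is a list of names, drawn up when earlier results of these data were known. All 10 had enough reads to be tested. RNA of intestinal crypts was sequenced from 4 Mex3a-/- mice (KO) and 4 littermate wild-type controls (Ctrl). All mice were C57BL/6 and 8 weeks old, and none of the labels names an irradiation or a drug. In the KO mice the first exon of Mex3a and a part of the next were deleted in every cell of the body, so the deletion was not limited to the epithelium. Crypts are the pockets of the gut lining that hold the intestinal stem cells (ISCs), and Mex3a encodes an RNA-binding protein found in a subset of those cells. The crypts were shaken out of EDTA-treated intestine, and the labels do not say which segment was taken.

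In unstressed cells p53 is kept scarce because MDM2, an enzyme that its own target gene encodes, marks it for destruction. Its level is set mainly at the protein, which RNA does not show, so its activity is often read from its targets. Some targets halt the cell cycle, above all Cdkn1a, which encodes the kinase inhibitor p21. Others, such as Bax, Bbc3 (PUMA) and Pmaip1 (NOXA), open the mitochondria to start apoptosis. The crypt base is known as one of the tissues of the body where p53 most readily drives apoptosis after irradiation, and p21 is also known to appear in crypt cells as they stop dividing and differentiate, with or without p53.

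Between 20324184 and 24726221 reads per Ctrl mouse and between 23489180 and 30654105 per KO mouse were counted on genes. Mex3a had 236 to 328 counts in Ctrl and 6 to 28 in KO, in keeping with the labels. Mitochondrial genes took 5.63% to 11.6% of the counts. Replicates 3 and 4 of each genotype had Xist at a high level and replicates 1 and 2 had next to none, so each genotype held 2 mice of each kind. Levels below are normalised read counts (CPM), that is, counts scaled to the size of each library with TMM factors. KO and Ctrl were compared on the counts of 16109 genes by edgeR's quasi-likelihood test, with Benjamini-Hochberg adjustment over all of them. Differences between the genotypes are log2 fold changes of KO over Ctrl, with their standard error (SE). The labels call the mice separate samples, and a bulk library cannot tell fewer cells of a kind from less RNA per cell.

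Of the 10 genes, Cdkn1a alone differed between the genotypes at an unadjusted p under 0.05. It was higher in KO, and it was also the only one of the 10 in which the 4 KO mice did not overlap the 4 Ctrl mice. Read against all genes tested, this share is near the background: 1 of 10 stands beside 8.38% of all genes at that threshold (5.33% higher in KO and 3.05% lower), and 1 of 10 without overlap is beside 4.05%. After adjustment 0 of the 10 passed with edgeR, which called 0.00621% of all genes, namely Mex3a itself. With DESeq2 1 of the 10, Cdkn1a, passed, beside 93 genes or 0.669% of the 13903 to which DESeq2 gave an adjusted p. With the replicate number as a block in edgeR, 2 of the 10 (Cdkn1a and Pmaip1) had an unadjusted p under 0.05, beside 11.3% of all genes. Fitted differences were above 0 in 4 members and below 0 in 6, and the median difference was -0.04 on the log2 scale, beside -0.02 over all genes tested. The median size of the difference, sign aside, was 0.16 in the members and 0.13 over all genes.

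**Figure D1:**
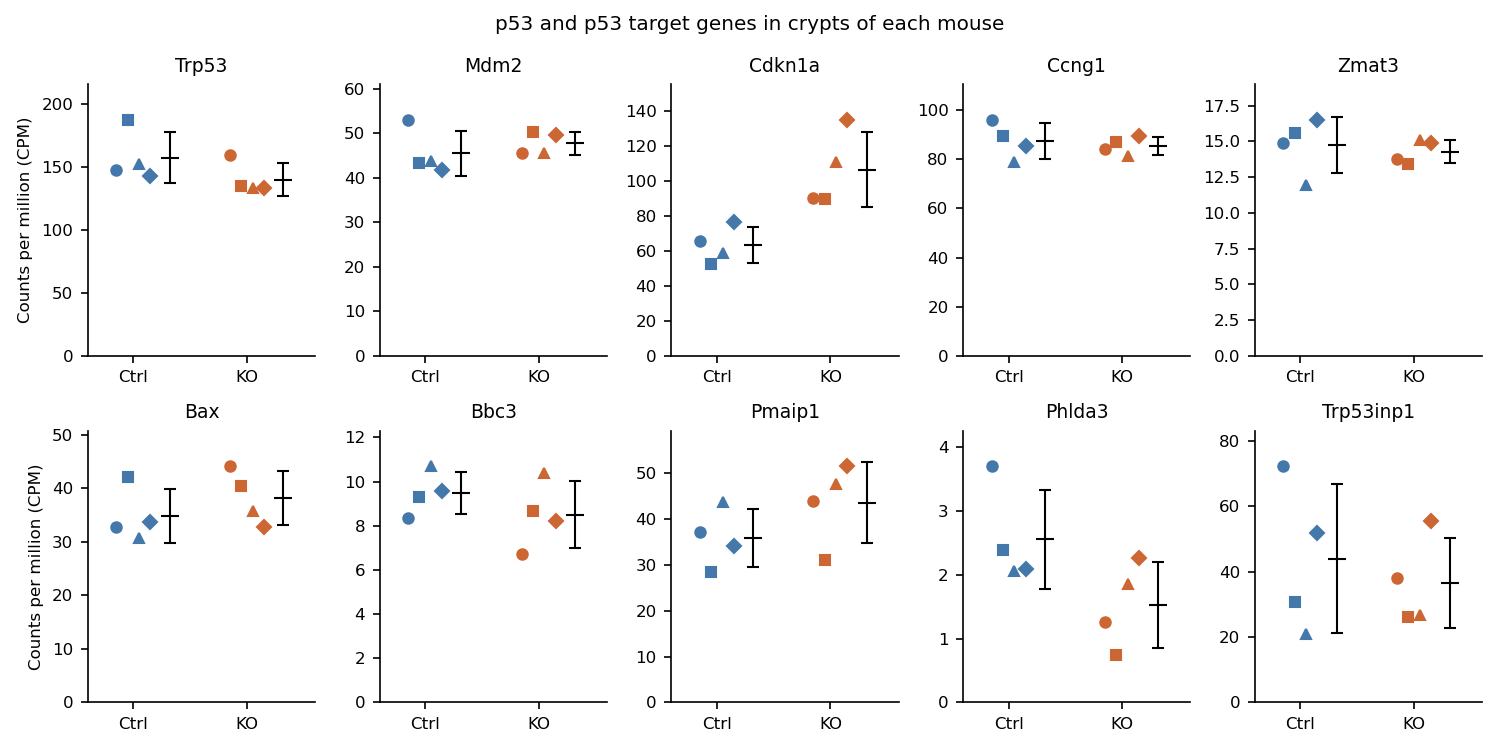
Level of p53 and its targets in each mouse, in normalised read counts (CPM; vertical axes start at 0), for Ctrl (blue) and KO (orange). Circles, squares, triangles and diamonds are replicates 1, 2, 3 and 4, and the bars give the mean and SD of 4 mice. Cdkn1a is the panel in which every orange point lies above every blue one.

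Sequence letters that p53 could read are shown first, because they are what these genes are commonly grouped by. p53 binds pairs of a 10-base element, the p53 decamer, made of 3 purines, a C, 2 bases that are A or T, a G and 3 pyrimidines. The element reads alike on both strands. It was searched in the RefSeq promoters of GRCm38.p6, each from 250 bases before to 50 after a start site. Promoters were found for 7 of the 10 members (10 promoters; none for Pmaip1, Trp53inp1 and Zmat3). A decamer was found in 5 of those 10 promoters, each of another gene, beside 8.36% of all 32851 promoters. The matches follow, 5′ to 3′ on the strand of the gene, with the 4-base core in capitals; the letters are a description of these windows, and known p53 sites that lie farther from a start site were not searched.
Trp53, chr11:69580284-69580293, plus strand, first base 75 before the start: ggaCTTGccc
Mdm2, chr10:117710935-117710944, minus strand, first base 186 before the start: gaaCTTGcct
Cdkn1a, chr17:29090906-29090915, plus strand, first base 73 before the start: ggaCTAGctt
Cdkn1a, chr17:29090928-29090937, plus strand, first base 51 before the start: gaaCATGtct
Ccng1, chr11:40755462-40755471, minus strand, first base 185 before the start: gggCAAGcct
Bax, chr7:45467090-45467099, minus strand, first base 201 before the start: aggCAAGctt
Cdkn1a was the member with more than 1 decamer in the window. Its 2 decamers lie 12 bases apart. A pair at most 10 bases apart was found in 0 of the 10 promoters, beside 0.0426% of all promoters, and with a limit of 13 bases, chosen after the data were seen, in 1 of the 10, that of Cdkn1a, beside 0.0731%; the count turns on that limit. The genes with a match include the one that differed most clearly (Cdkn1a) and 4 that did not pass the test (Trp53, Mdm2, Ccng1 and Bax).

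Trp53 (ENSMUSG00000059552; GRCm38 chr11:69580359-69591873, plus strand) encodes p53. Its level was 147, 187, 152 and 143 CPM in Ctrl replicates 1 to 4 and 159, 135, 133 and 133 CPM in KO replicates 1 to 4. The genotypes overlapped: 3 KO mice lay below every Ctrl mouse, and KO replicate 1 lay above 3 of them. On the log2 scale the difference was -0.17 (SE 0.10, 95% interval -0.40 to 0.06, adjusted p = 0.689 by edgeR). A two-sided exact permutation test over the 70 assignments of the mice gave p = 0.20, where the smallest p that 4 against 4 allow is 0.0286. Without KO replicate 1 the difference was -0.24, and edgeR's adjusted p was 0.375 (unadjusted p = 0.0455). Without Ctrl replicate 2, the highest of the 8 mice, it was -0.08 (adjusted p = 0.847 by edgeR), so the size of the difference hung on single mice in both directions.

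Mdm2 (ENSMUSG00000020184; chr10:117688875-117710758, minus strand), which encodes the ligase that removes p53 and is itself switched on by p53, was measured with little spread. It stood at 53, 43.4, 43.7 and 41.8 CPM in Ctrl and at 45.5, 50.2, 45.5 and 49.7 CPM in KO. The KO values lay inside the range of the Ctrl values. The log2 fold change of 0.07 had a 95% interval of -0.13 to 0.27 (adjusted p = 0.879 by edgeR). As a ratio of KO to Ctrl the interval runs from 0.914 to 1.21. Without Ctrl replicate 1 the log2 fold change was 0.15, and without Ctrl replicate 4 it was 0.03 (adjusted p = 0.736 and 0.965 by edgeR).

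Cdkn1a (ENSMUSG00000023067; chr17:29090976-29100727, plus strand) encodes p21, which binds cyclin-dependent kinases and stops cells before they copy their DNA. Its level was 65.4, 52.8, 58.9 and 76.7 CPM in Ctrl replicates 1 to 4. In KO replicates 1 to 4 it was 90.2, 89.8, 111 and 135 CPM. Every KO mouse lay above every Ctrl mouse, and each KO mouse lay above the Ctrl mouse of the same number. The means were 63.4 ± 10.2 CPM in Ctrl and 106 ± 21.3 CPM in KO (SD, n = 4 each). On the opposite strand 1046 bases are shared with AC167363.2, which had 11 to 37 counts per mouse beside 1129 to 4056 for Cdkn1a; whether the counting used strand is not given in the sources used here.

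The KO level of Cdkn1a was 1.68 times that of Ctrl (95% interval 1.31 to 2.14), which is 0.75 ± 0.16 (SE) on the log2 scale. By edgeR the unadjusted p was 0.00092, the 33rd smallest of the 16109 genes, and the adjusted p was 0.429, which does not pass 0.05. The two-sided exact permutation test gave p = 0.0286, the smallest it can give. Blocking on the replicate number gave a difference of 0.74 (adjusted p = 0.131 by edgeR), and DESeq2 gave one of 0.75 (adjusted p = 0.00399), so the call past adjustment rests on the choice of test. Over 17 alternative fits the log2 fold change lay between 0.61 and 0.85, the unadjusted p was under 0.05 in all 17, and the adjusted p ran from 0.00399 to 0.952.

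The separation was found in mice with high and with low Xist. Among replicates 1 and 2 of both genotypes, which had low Xist, Ctrl had 52.8 and 65.4 CPM and KO had 89.8 and 90.2. Among replicates 3 and 4 Ctrl had 58.9 and 76.7 CPM and KO 111 and 135. Pair by pair, the log2 difference of KO over the Ctrl mouse of the same number was 0.46, 0.77, 0.91 and 0.81.

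**Figure D2:**
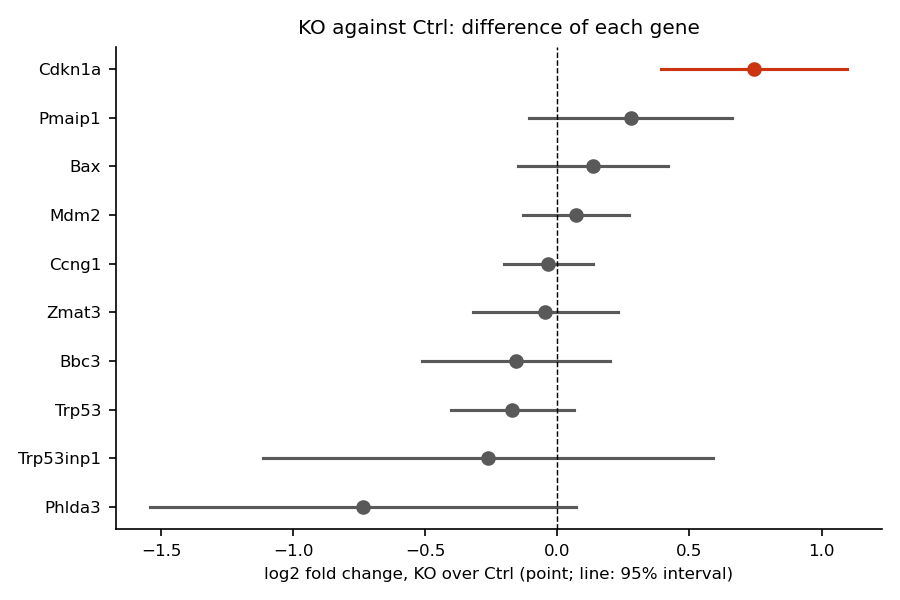
Difference of each gene between the genotypes, as the log2 fold change of KO over Ctrl (horizontal axis; 0 is no difference) with its 95% interval from edgeR. The interval of Cdkn1a, in red, runs from 0.39 to 1.10 and is the only one of the 10 that leaves out 0.

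Ccng1 and Zmat3 are further p53 targets outside the killing machinery. Ccng1 (ENSMUSG00000020326; chr11:40748552-40755311, minus strand) encodes cyclin G1, which recruits a phosphatase to MDM2. It was at 96.0, 89.6, 78.8 and 85.6 CPM in Ctrl and at 84.1, 87.2, 81.2 and 89.3 CPM in KO. Its spread was among the smallest of the members, with a coefficient of variation of 8.25% in Ctrl and 4.18% in KO, and the KO mice lay within the Ctrl range. KO differed from Ctrl on the log2 scale by -0.03 (95% interval -0.20 to 0.14, adjusted p = 0.945 by edgeR), and the sign turned without Ctrl replicate 1 (0.01).

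Zmat3 (ENSMUSG00000027663; chr3:32334792-32366014, minus strand) encodes a zinc finger protein that binds RNA. Its level was 14.9, 15.6, 11.96 and 16.5 CPM in Ctrl and 13.8, 13.4, 15.1 and 14.9 CPM in KO. The KO mice again lay within the Ctrl range. Its log2 difference was -0.05 (95% interval -0.32 to 0.23, adjusted p = 0.957 by edgeR), and it turned to 0.01 without Ctrl replicate 4.

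The 3 members of the BCL2 family did not pass the test. Bax (ENSMUSG00000003873; chr7:45461697-45466898, minus strand), which encodes a protein that forms pores in the outer mitochondrial membrane, was at 32.8, 42.1, 30.7 and 33.7 CPM in Ctrl and at 44.1, 40.4, 35.7 and 32.7 CPM in KO. The mice of the genotypes were mixed in order. The log2 difference was 0.13 (95% interval -0.15 to 0.42, adjusted p = 0.814 by edgeR). Without KO replicate 1 it was 0.06, and without Ctrl replicate 2 it was 0.24 (adjusted p = 0.898 and 0.669 by edgeR). Bax shares 915 bases on its own strand with Gm45808, which had 0 counts in all 8 mice, so how reads on those bases were counted is uncertain.

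Bbc3 (ENSMUSG00000002083; chr7:16308393-16318205, plus strand) encodes PUMA, a BH3-only protein, the class that sets off BAX and its partner BAK. It was at 8.36, 9.30, 10.7 and 9.57 CPM in Ctrl and at 6.72, 8.69, 10.4 and 8.21 CPM in KO. Each KO mouse lay below the Ctrl mouse of its number, but the ranges overlapped. On the log2 scale the difference was -0.16 (95% interval -0.51 to 0.20, adjusted p = 0.831 by edgeR, and 0.672 with the replicate block). Without KO replicate 1 it was -0.06, and without KO replicate 3 it was -0.27 (adjusted p = 0.910 and 0.973 by edgeR).

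Pmaip1 (ENSMUSG00000024521; chr18:66458604-66465550, plus strand) encodes NOXA, another BH3-only protein, which neutralises the survival protein MCL1. Its level was 37.2, 28.6, 43.6 and 34.2 CPM in Ctrl and 43.8, 31.2, 47.6 and 51.5 CPM in KO. Each KO mouse lay above the Ctrl mouse of its number, and KO replicate 2 lay below 3 of the 4 Ctrl mice. KO differed from Ctrl on the log2 scale by 0.28 (95% interval -0.11 to 0.66, adjusted p = 0.691 by edgeR). With the replicate block it was 0.27, and edgeR's adjusted p was 0.389 (unadjusted p = 0.0292), so Pmaip1 crossed the unadjusted threshold in the fit that pairs the mice. Without KO replicate 2 it was 0.41 (unadjusted p = 0.0172, adjusted p = 0.611 by edgeR), while without Ctrl replicate 2 it was 0.18 and without KO replicate 4 it was 0.19 (adjusted p = 0.809 and 0.896 by edgeR).

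Phlda3 and Trp53inp1 were the members that varied most between mice. Phlda3 (ENSMUSG00000041801; chr1:135766119-135769136, plus strand) encodes a small protein that holds back the survival kinase AKT. It had few reads, 42 to 80 counts in Ctrl and 19 to 68 in KO, which is 3.70, 2.38, 2.05 and 2.09 CPM in Ctrl and 1.26, 0.737, 1.86 and 2.26 CPM in KO. KO replicates 1, 2 and 3 lay below every Ctrl mouse, and KO replicate 4 lay above 2 of them. Its log2 difference was -0.73 (SE 0.36, 95% interval -1.54 to 0.07, adjusted p = 0.618 by edgeR). Its size was close to that of Cdkn1a, in the opposite direction and with an interval that holds 0. Without KO replicate 4 it was -0.99 (unadjusted p = 0.0273, adjusted p = 0.788 by edgeR), while without either Ctrl replicate 1 or KO replicate 2 it was -0.50 (adjusted p = 0.817 and 0.751 by edgeR). With limma it was -0.42 on log2(FPKM + 1) and -0.74 on log2(FPKM + 0.1), with limma's unadjusted p at 0.046 and 0.0495 and its adjusted p at 0.605 and 0.609.

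Trp53inp1 (ENSMUSG00000028211; chr4:11156431-11174379, plus strand) encodes a nuclear protein that takes part in p53-driven apoptosis and in autophagy. It was at 72.2, 30.7, 21.1 and 51.9 CPM in Ctrl and at 38.04, 26.2, 26.7 and 55.5 CPM in KO. The highest mouse, Ctrl replicate 1, had over 3 times the level of the lowest, Ctrl replicate 3, so the spread within a genotype was larger than the difference between genotypes. The log2 difference was -0.26 (95% interval -1.11 to 0.59, adjusted p = 0.899 by edgeR), and without Ctrl replicate 1 it was 0.08.

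Levels of different genes can be set side by side only per length, for which the deposited FPKM values were used. Trp53 was the highest of the members by median, at 32.7 to 46.0 FPKM over the 8 mice, although in KO replicate 4 Cdkn1a stood above it (37.8 against 32.8 FPKM). Ccng1 (22.4 to 26.9 FPKM), Cdkn1a (14.7 to 37.8) and Bax (19.4 to 28.0) came next by median, and their ranges overlapped; that of Cdkn1a also reached into the range of Trp53 above and of Pmaip1 below. Pmaip1 followed at 10.7 to 19.4 FPKM, and then Mdm2 (8.15 to 10.3), Trp53inp1 (3.24 to 11.0) and Bbc3 (3.16 to 5.02), in which each overlapped its neighbour. Phlda3 (0.472 to 2.34 FPKM) and Zmat3 (1.04 to 1.43) were the lowest and overlapped too. By genotype means Cdkn1a was the 4th highest of the members in Ctrl (17.7 ± 2.82 FPKM, SD, n = 4) and the 2nd highest in KO (29.9 ± 5.95, SD, n = 4).

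The members did not, on the whole, vary together from mouse to mouse. After each genotype's mean was taken away, the log2 CPM of 23 of the 45 pairs of members correlated positively over the 8 mice, with a median Pearson's r of 0.03. The most alike were Bax and Trp53 (r = 0.84), and Trp53inp1 and Ccng1, like Ccng1 and Mdm2, stood at 0.75. Cdkn1a ran opposite to Bax (r = -0.75) and to Trp53 (-0.69). Among 12377 genes of at least moderate level, those whose remaining variation was most like that of Cdkn1a were Cracr2a (r = 0.99), Apcdd1 (0.97), Tle2 (0.97), Cbfa2t3 (0.97) and Abcb1a (0.97), none of them a member of the p53 lists. All of these values describe the same 8 libraries, which differ in depth and in the levels of cell type genes, and they carry no test.

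The wider set of p53 targets, a list of 36 further genes, was looked at next. Whether each of them responds to p53 in mouse crypts was not tested. Of the 35 tested (Dram1 had 1 to 6 counts), 4 were higher and 1 was lower in KO at an unadjusted p under 0.05, and 0 passed adjustment with edgeR, while DESeq2 passed Sertad1 (adjusted p = 0.0272). Fitted differences were above 0 in 18 and below 0 in 17, with a median of 0.02. The 5 of 35 are 14.3% beside 8.38% of all genes tested, and 4 of 35 did not overlap between genotypes, beside 4.05%.

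Sertad1, which encodes a partner of CDK4 and of E2F factors, was the clearest of the wider set. It had 28.8, 23.5, 35.1 and 25.9 CPM in Ctrl and 44.3, 35.2, 44.2 and 47.1 CPM in KO, where every KO mouse lay above every Ctrl mouse, the nearest 2 by a small margin. On the log2 scale the difference was 0.59 (SE 0.14, adjusted p = 0.504 by edgeR). Sesn1, which encodes a sestrin that restrains mTORC1, had 44.5, 62.0, 43.8 and 54.9 CPM in Ctrl and 65.0, 89.7, 78.9 and 66.7 CPM in KO, again without overlap. Its difference was 0.55 (SE 0.14, adjusted p = 0.518 by edgeR).

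Ddb2, which encodes a sensor of ultraviolet damage in DNA, was the gene of this list that was lower in KO at that threshold. It had 20.8, 19.95, 19.5 and 19.8 CPM in Ctrl and 17.7, 15.1, 16.5 and 15.9 CPM in KO, a log2 fold change of -0.30 (SE 0.09, adjusted p = 0.518 by edgeR). Its difference was small, and the spread within Ctrl was smaller still. Cyfip2, a regulator of actin, was low throughout, with 1.08 to 1.94 CPM in Ctrl and 1.98 to 4.85 CPM in KO, and differed by 1.03 on the log2 scale (SE 0.34, adjusted p = 0.518 by edgeR). Apaf1, which encodes the core of the apoptosome, was the other gene of this set that was higher in KO, by 0.30 (SE 0.11, adjusted p = 0.537 by edgeR), with ranges that overlapped.

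Regulators of p53 and of damage signalling were described in the same way. Of 18 tested genes, 0 were higher and 2 were lower at an unadjusted p under 0.05, which is 11.1% beside 3.05% of all genes that were lower and 8.38% in either direction. A difference below 0 was found in 13 of the 18, beside 53.9% of all genes, and the median was -0.06. Atm, the kinase that responds to double-strand breaks, had 60.7 to 69.6 CPM in Ctrl and 57.0 to 60.3 CPM in KO, a log2 fold change of -0.19 (SE 0.07, adjusted p = 0.533 by edgeR). Trp53bp1, which encodes the repair factor 53BP1, differed by -0.21 (SE 0.09, adjusted p = 0.578 by edgeR). Cdkn2a, which encodes the p53 stabiliser ARF beside p16, had 0 to 6 counts per mouse and was too low to test, as were Trp63 and Trp73, the relatives of p53.

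Inhibitors of cyclin-dependent kinases form a list to which Cdkn1a itself belongs. Of the 6 tested, 2 had an unadjusted p under 0.05 and were higher in KO, Cdkn1a and Cdkn2b, beside 5.33% of all genes, and the median was 0.12. Without Cdkn1a that leaves 1 gene of 5. Cdkn2b encodes p15, is not a member of the p53 lists, and is best known as a target of TGF-beta. It had 23.1, 30.7, 29.3 and 33.8 CPM in Ctrl and 33.3, 46.8, 58.1 and 43.6 CPM in KO, so that KO replicate 1 lay just under the highest Ctrl mouse. KO differed from Ctrl on the log2 scale by 0.64 (SE 0.17, adjusted p = 0.518 by edgeR).

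Genes of the apoptotic machinery were counted against the same threshold. None of the 4 tested pro-survival genes of the BCL2 family, the 3 pore-forming genes or the 7 BH3-only genes had an unadjusted p under 0.05 by edgeR. Over all genes tested the share was 8.38%, and lists this short cannot set a count of 0 apart from it. Mcl1 and Bcl2l1, which encode survival proteins, differed by 0.10 and 0.04 on the log2 scale. Bak1, the partner of Bax, differed by 0.23 (unadjusted p = 0.0727 by edgeR, and 0.0256 with the replicate block), and Bad and Bid, BH3-only genes, by 0.20 and 0.19, Bad with no overlap between the genotypes.

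Among 19 genes of caspases, the apoptosome and their inhibitors, 2 had an unadjusted p under 0.05 and were higher in KO, Apaf1 and Endog, a mitochondrial nuclease that differed by 0.31 (SE 0.13, adjusted p = 0.572 by edgeR). They are 10.5% of the list, beside 5.33% of all genes that were higher and 8.38% in either direction, and the median of this list was 0.03. Of 11 death receptor genes, 1 (9.09%, beside the same shares) was higher, Fasl, a ligand made chiefly by T cells and natural killer cells. It had 0.0934 to 0.554 CPM in Ctrl and 0.504 to 1.08 CPM in KO, a log2 fold change of 1.25 (SE 0.50, adjusted p = 0.557 by edgeR). Genes of immune cells were higher beside it: all 6 of the markers listed for them had a difference above 0 (53.9% of all genes lay below 0), 2 of them (Cd3e and Cd8a) at an unadjusted p under 0.05 (beside 5.33% of all genes), and their summed level was 14.4 to 29.2 CPM in Ctrl and 24.0 to 54.0 CPM in KO. The part of immune cells in the Fasl difference was not tested.

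**Figure D3:**
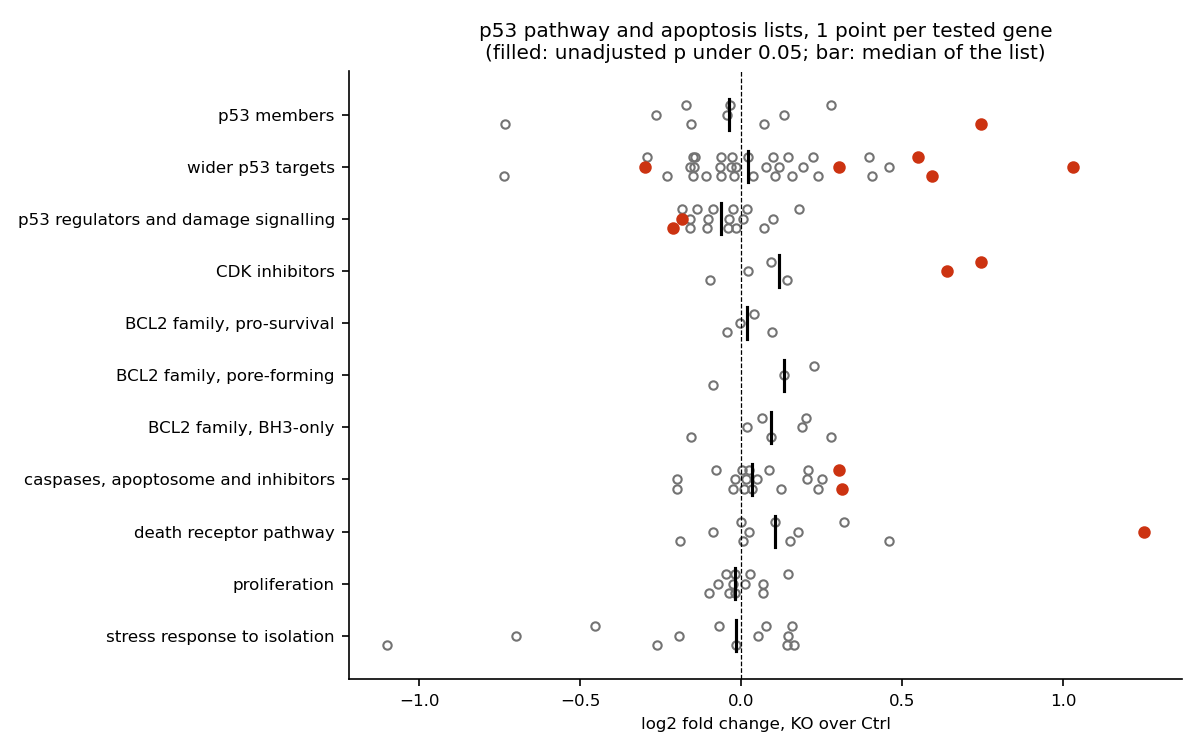
Difference between the genotypes for every tested gene of the p53 and apoptosis lists, with 1 point per gene (horizontal axis, log2 fold change of KO over Ctrl). Filled red points have an unadjusted p under 0.05 by edgeR, black bars are the median of each list, and a gene on several lists is drawn in each. The medians lie between -0.06 and 0.13.

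Of the cell type lists, 1, that of the crypt stem cell, had summed levels that did not overlap between the genotypes. The summed level of 8 crypt stem cell genes was 5479 to 6062 CPM in Ctrl and 4143 to 5072 CPM in KO. Most of it was Olfm4, with means of 3895 CPM in Ctrl and 3070 CPM in KO. The means of the whole sum were 5669 and 4563 CPM. Of the 8 genes, 2 did not overlap between the genotypes, beside 4.05% of all genes. All 8 had a difference below 0, beside 53.9% of all genes. At an unadjusted p under 0.05 by edgeR 5 were lower, beside 3.05% of all genes. The 8 enterocyte genes all had a difference above 0, with 3 under that threshold (5.33% of all genes were higher in KO there), and summed to 1454 to 3252 CPM in Ctrl and 2046 to 7139 CPM in KO, and the median difference was 0.92 on the log2 scale. The 6 goblet genes summed to 4609 to 6144 CPM in Ctrl and 5400 to 7685 CPM in KO, with 5 above 0, a median of 0.23, and 1 called in each direction at the unadjusted threshold. The 6 Paneth genes summed to 14840 to 43900 CPM in Ctrl and 7390 to 24090 CPM in KO, all 6 below 0 with a median of -0.67 and 0 called. The 4 enteroendocrine genes summed to 197 to 355 CPM in Ctrl and 254 to 282 CPM in KO, with 3 below 0, a median of -0.17 and 1 called lower. The 3 tuft genes summed to 30.5 to 71.5 CPM in Ctrl and 23.1 to 43.0 CPM in KO, all 3 below 0 with a median of -0.50 and 0 called. Stroma summed to 8.78 to 16.3 CPM in Ctrl and 12.1 to 19.3 CPM in KO, and blood to 1.37 to 4.39 and 0.864 to 1.72 CPM. None of the listed immune, stroma or blood markers was at 0 in all mice. What part the make-up of the crypts has in the level of Cdkn1a was not tested.

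No proliferation gene and no stress gene on the lists passed the unadjusted threshold, beside 8.38% of all genes. With 12 and 13 genes, a count of 0 cannot be set apart from that share. The 12 proliferation genes summed to 2052 to 2507 CPM in Ctrl and 1899 to 2479 CPM in KO; their median difference was -0.02, and by edgeR 0 reached an unadjusted p of 0.05. Mki67, the antigen of dividing cells, differed by -0.10 (adjusted p = 0.838 by edgeR), and Rrm2, which encodes a subunit of ribonucleotide reductase, by 0.15 (adjusted p = 0.862 by edgeR). The 13 genes that respond to the handling of tissue, among them Fos, Jun and heat shock genes, summed to 4610 to 6440 CPM in Ctrl and 4212 to 5674 CPM in KO, with a median of -0.02 and 0 genes under the threshold. Hspa8, a chaperone, had the smallest p of these (log2 fold change -0.45, adjusted p = 0.616 by edgeR). Every KO mouse lay below every Ctrl mouse, beside 4.05% of all genes without overlap. Ctrl replicate 2 stood far above the rest, at 3433 CPM beside 1727, 1854 and 1757 CPM in Ctrl replicates 1, 3 and 4. The KO mice had 1537 to 1695 CPM. Dnajb1, a co-chaperone, followed with a difference of -0.26 (adjusted p = 0.709 by edgeR).

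**Figure D4:**
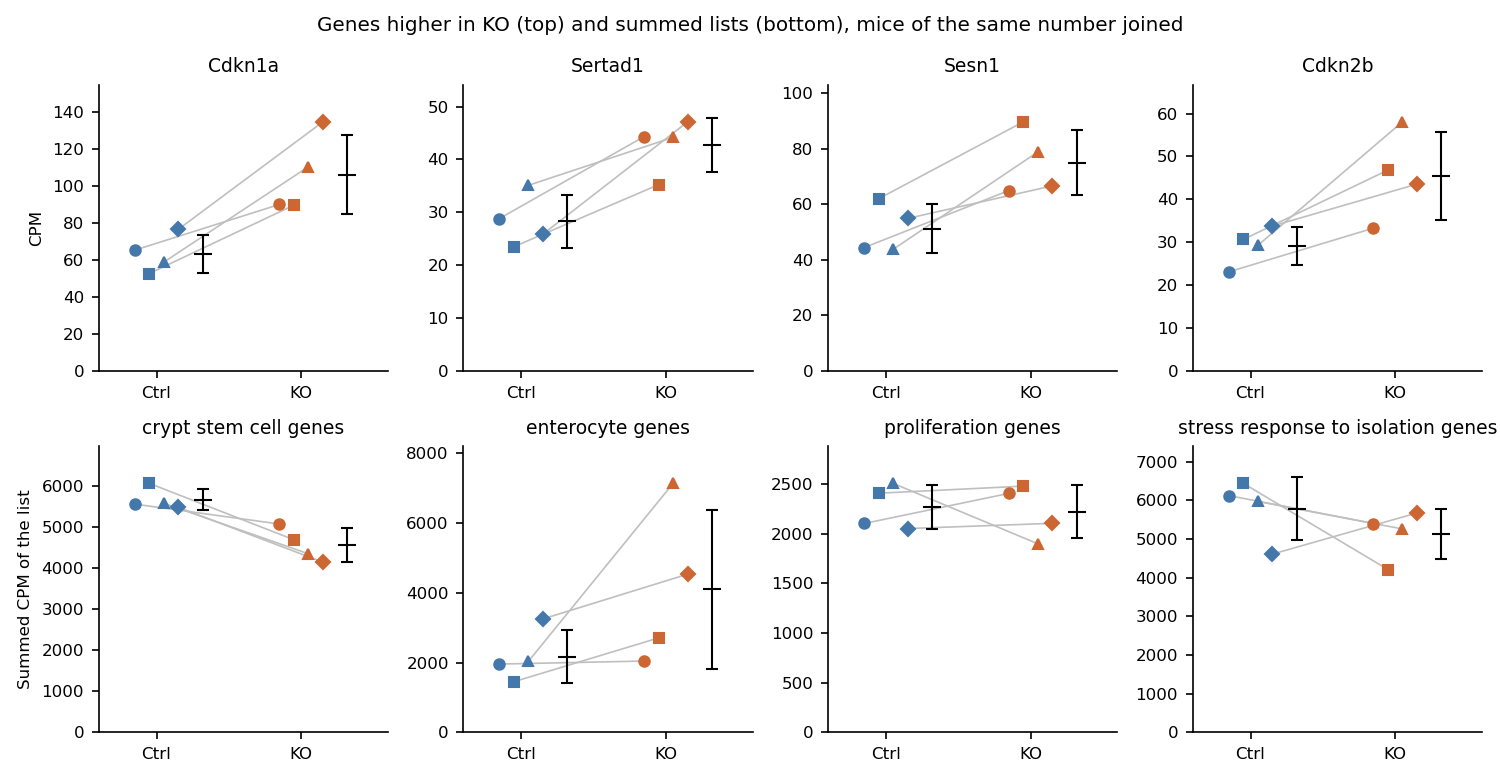
Levels in each mouse of Cdkn1a, of 2 wider p53 targets and of Cdkn2b (top, CPM), and of summed gene lists (bottom, summed CPM; all vertical axes start at 0). Blue is Ctrl, orange is KO, circles, squares, triangles and diamonds are replicates 1 to 4, grey lines join mice of the same number, and bars give the mean and SD of 4 mice. The summed stem cell genes, most of whose level is Olfm4, leave a gap between the genotypes and are lower in KO. Cdkn1a leaves a gap too, while the summed proliferation genes overlap.

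MEX3A binds RNA, and its known recognition element in 3′UTRs is a pair of 4-base boxes, the first ending in AG and the next beginning with U and ending in UA, at most 8 bases apart. For each gene, the longest coding transcript of GENCODE M21 (GRCm38) was taken and its 3′UTR searched. It was present in 7 of the 9 members with an annotated 3′UTR, beside 74.3% of 12989 tested genes, so its presence does not mark the members out. Longer 3′UTRs held more matches: Zmat3 had 23 in 6692 bases, Trp53inp1 14 in 4420 and Ccng1 13 in 2316. Pmaip1 had 6, Mdm2 3 and Bbc3 2, and Trp53 and Phlda3 had 0. Cdkn1a had 2 in 1334 bases, both in exon 3. They are shown because Cdkn1a is the member that differed, with the boxes in capitals and T for U.
Cdkn1a, chr17:29100136-29100148, plus strand, bases 743 to 755 of the 3′UTR: GGAGgcataTCTA
Cdkn1a, chr17:29100299-29100309, plus strand, bases 906 to 916 of the 3′UTR: AGAGcatTCTA
The genes with the most matches, Zmat3, Trp53inp1 and Ccng1, had log2 fold changes of -0.05, -0.26 and -0.03, and binding was not measured here.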

How the data were processed

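Crypt RNA of 4 Ctrl and 4 KO mice was analysed, grouped by the labels. Per the submitters' processing notes, CASAVA, HISAT2 2.0.5 and featureCounts 1.5.0-p3 were used; strand settings are not given in the sources used here. The deposited values are, for each mouse, raw counts of reads on each gene, and beside them the authors' FPKM values, which divide counts by gene length and library size. Their own DESeq2 group means, fold changes and p-values were not used. The 276 rows with identifiers of the authors' own were kept.

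Counts were compared with edgeR 4.0.16 (R 4.3.3): filterByExpr (minimum count 10), TMM, and the quasi-likelihood test with genotype as the only term, adjusted by the Benjamini-Hochberg method (threshold 0.05). The test was also run on simulated data. Alternatives were DESeq2 1.42.0, RLE and upper-quartile factors, other filters, limma 3.58.1 on log2(FPKM + 1) and log2(FPKM + 0.1), the replicate block, each mouse left out, and, chosen after seeing the data, Xist status as a covariate. Permutation tests went through all 70 assignments of the mice in Python 3.11.15.

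Members and lists were chosen with earlier results of these data known. All members are named; from each other list, up to 4 genes with the smallest p under 0.05, or otherwise the 2 with the smallest p, and the 5 genes most like Cdkn1a. Cell type markers named beside Fasl were chosen after their values were seen. After the genotype means were taken away, mice that share a number correlated over genes at 0.129 to 0.501 in all 4 pairs, so the numbers were taken to pair the mice. The labels do not say what a number marks, and mice with the same number also share high or low Xist, so these correlations and the block hold Xist status as well; the mean correlation was highest for the numbers among all 24 matchings, those that keep Xist status alike included. Libraries of 1 genotype differed beyond sampling noise (chi-square over its degrees of freedom 23.8 to 88.5 between pairs).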

Additional observations from a re-analysis of the deposited data

Results flagged for a closer look

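Trp53 in KO replicate 1 stood apart from its group, at 159.2 CPM beside 132.8, 133.0 and 134.5 CPM in the other 3 KO mice (a gap of 0.934 of the group's range, above Dixon's critical value at the 95% level). It was the 1 flag among 20 groups of 4 mice examined, and about 1 is reached by chance. Bax, whose level ran most like that of Trp53 between mice, was also highest among the KO mice in replicate 1 (44.1 CPM).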

How the results depend on the processing

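Cdkn1a had an unadjusted p under 0.05, with KO above Ctrl, in all 17 alternatives. The count of members past an adjusted p was 1 with DESeq2 in place of 0, and the count at an unadjusted p was 2 in place of 1 with limma at both pseudocounts (adding Phlda3) and with the replicate block (adding Pmaip1), and 1 to 2 with a mouse left out (2 without KO replicate 1, 2 or 4, adding Trp53, Pmaip1 and Phlda3 in turn). The block otherwise changed the unadjusted call of Pmaip1 only among the members. For the wider p53 targets the count was 8 with the replicate block in place of 5, where all genes gave 1815 in place of 1350, 7 with DESeq2, and 4 to 9 with a mouse left out (9 without KO replicate 1). For all genes, the count past adjustment was 93 with DESeq2, 2 without a filter and with limma at either pseudocount, 0 with at least 10 counts in every mouse and with the replicate block, 4 with Xist status as a covariate, and 0 to 4 with a mouse left out (4 without Ctrl replicate 2), in place of 1; at an unadjusted p it was 846 (without KO replicate 3) to 2133 (without KO replicate 1), in place of 1350. With a mouse left out the log2 fold change ran from -0.075 to 0.013 for Ccng1 and from -0.536 to 0.083 for Trp53inp1, both above 0 without Ctrl replicate 1, and from -0.128 to 0.014 for Zmat3, above 0 without Ctrl replicate 4. The cause of these shifts was not tested. Phlda3 had the fewest counts of the members, 19 to 80 per mouse.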
